A study of Mus musculus with 32 samples.

Results

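The clustered histone genes are the mouse genes whose symbol opens with Hist1h, Hist2h, Hist3h or Hist4h, and they were chosen by that name alone, without any measured value. They numbered 68 of 24411 genes in the table of the CD11c-DTR transfer and 69 of 24421 in the table of the CX3CR1-DTR transfer, which also lists the pseudogene Hist3h2bb-ps. Cluster 1 on chromosome 13 held 55 of the 68, cluster 2 on chromosome 3 held 10, cluster 3 on chromosome 11 held 2 and Hist4h4 on chromosome 6 stood alone. By protein they were 6 genes of the linker histone H1, 19 of H2A, 18 of H2B, 12 of H3 and 13 of H4.

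The study followed monocytes from a graft into the macrophages they become in the gut. Monocytes sorted as CD117- CD11b+ CD115+ Ly6C+ GFPint from bone marrow of CD45.1 Cx3cr1 GFP/+ mice made up the graft (3 libraries, no diphtheria toxin). Its progeny were sorted from recipients treated with toxin, 4, 8 or 12 days after transfer, from the colon (3, 4 and 4 libraries) and the ileum (4 libraries a day). The labels give a gate on CD45, CD11b, CD64 and MHCII with Ly6C excluded, while the study describes a sort of graft cells by CD45.1 and GFP. These recipients were bone marrow chimeras in which the Itgax promoter drives the toxin receptor (Itgax-DTR/GFP, on C57BL/6J), so that the toxin removes only host cells that use this promoter. A second transfer, into chimeras with Cx3cr1-DTR marrow on the same C57BL/6J background and on toxin, gave 6 libraries of GFP+ progeny, labelled with the same gate, from the colon on day 14, and it has no graft of its own. Replicate 1 of colon day 8 was kept out of the tests, as the study lists 3 libraries for this group. For the CX3CR1-DTR colon the study also lists fewer repeats than the labels hold, but which ones could not be told, so all 6 libraries were kept. The labels of the graft name blood as the organ and the recipients' transgene as the genotype, and the study's description of the donors was used here. Labels show separate dates or numbers but not which libraries share mice, so p-values measure the spread between these samples.

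Replication-dependent histone genes are switched on in S phase, when each new DNA strand needs a fresh set of nucleosomes. Pairs of H2A and H2B and a tetramer of H3 and H4 form the nucleosome core, and H1 binds the linker DNA between cores. Their mRNAs normally end in a short stem-loop, bound by the protein SLBP, in place of a poly(A) tail, and they are degraded once DNA synthesis stops. Some of these genes also give polyadenylated mRNAs, known mostly from cells that have left the cell cycle. Libraries here were made from RNA caught on oligo(dT), so that what is counted is the polyadenylated or A-rich part of histone RNA and not its whole amount.

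Gene reads numbered 591817 to 5228664 in a library of the CD11c-DTR transfer and 1223772 to 4218027 in one of the other transfer. In the first table a normalized read is a count scaled to 10000000 mapped reads, and 3 counts, taken as the floor, equal 3.51 to 27.65 of them. For the second table, and groups set against it, counts were scaled to 10000000 reads on genes, with a floor of 7.11 to 24.51. Fold changes are log2 values from edgeR's quasi-likelihood test with TMM scaling, and a gene was called at a Benjamini-Hochberg adjusted p under 0.05 over all genes tested. Of the 68 genes 64 passed the filter of 50 normalized reads in 3 libraries (H1 4 of 6, H2A 19 of 19, H2B 16 of 18, H3 12 of 12, H4 13 of 13). The genes below the filter were Hist1h1a, Hist1h1t, Hist1h2ba and Hist3h2ba.

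The engrafted libraries differed from the graft in markers of other cells. The summed level of 7 epithelial markers (such as Epcam and Vil1) was 21.8 to 28.07 normalized reads in the graft, with Epcam, Krt20, Vil1 and Cdh1 at or under the floor in all its libraries. That sum was 61359 to 91529 in the colon, 10586 to 77617 in the ileum and 97422 to 149325 in the CX3CR1-DTR colon. For all marker sums given here, CX3CR1-DTR values were scaled to reads on genes and the others to mapped reads. As these scales differ, the CX3CR1-DTR ranges cannot be ranked against those of the colon and ileum. The leukocyte genes Ptprc and Itgam summed to 7815 to 10837 in the graft, 232.5 to 1420 in the colon, 336.5 to 4379 in the ileum and 40.86 to 246 in the CX3CR1-DTR colon. The 4 monocyte markers summed to 34663 to 40249 in the graft and 630.9 to 18827 in the progeny, and 8 macrophage markers to 4764 to 8304 and 5047 to 134465. The 5 neutrophil markers summed to 6559 to 9471 in the graft, and to 8.53 to 400.2 in the colon, 46.08 to 1095 in the ileum and 4.74 to 47.69 in the CX3CR1-DTR colon. The part of these cells in the histone values was not tested, and in such bulk samples fewer cells of a type and less RNA per cell cannot be told apart.

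In the mm9 genome (NCBIM37) with GENCODE genes, 61 of the 67 members with an annotated stop codon carried a histone stem-loop within 150 bases after it, at a distance of 21 to 58 bases. None of 4543 other protein-coding genes on these chromosomes did. The sites of genes that the results turn on are shown because the stem-loop is the usual 3′ end of these mRNAs, with the stem and loop in capitals, 5′ to 3′ on the gene's strand. Hist1h2ac lies at chr13:23775341-23775366 (minus strand), Hist1h2bc at chr13:23776511-23776536 (plus), Hist2h2ac at chr3:96024336-96024361 (minus), Hist1h1c at chr13:23831376-23831401 (plus) and Hist1h4k at chr13:21842014-21842039 (minus).
Hist1h2ac: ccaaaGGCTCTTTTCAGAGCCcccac
Hist1h2bc: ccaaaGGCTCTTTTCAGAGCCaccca
Hist2h2ac: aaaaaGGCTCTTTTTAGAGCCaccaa
Hist1h1c: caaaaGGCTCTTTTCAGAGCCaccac
Hist1h4k: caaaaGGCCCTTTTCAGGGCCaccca

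The gene models that the authors counted mostly stop at this element. Of 53 models that could be placed against it, 50 ended 4 to 8 bases past it. The exceptions, chosen after their values were seen, were all of H2B: Hist1h2bc ended 7818 bases past its stem-loop, Hist1h2be 1861 and Hist1h2bp 1275. Only Hist1h2bc and Hist1h2bp, 2 of 53, had the polyadenylation signal AATAAA in the last 50 bases of the counted model. For the other protein-coding genes of these chromosomes, searched at the ends of the GENCODE genes instead, the share was 57.7%. The 2 shares thus rest on unlike gene ends. The 53 also leave out models with 2 copies, such as Hist1h2bq, and members without a stem-loop, such as Hist2h2be. GENCODE places Hist1h2bc in exon 1 at chr13:23776068-23776490 and exon 2 at chr13:23784045-23784357, so that its stem-loop falls in the intron. The last 30 bases of the counted model, chr13:23784320-23784349 on the plus strand, read as follows with AATAAA in capitals.
Hist1h2bc model end: gatgtatatatAATAAAtgtcatgtaaagc

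Reads on clustered histone genes were most abundant in the graft, where they made up 1.07% ± 0.27 (SD, n = 3) of all gene reads. Engrafted groups held 0.231% (colon day 8) to 0.433% (ileum day 8), and the CX3CR1-DTR colon 0.134% ± 0.036 (n = 6). The graft's histone reads were nearly all from H2A genes, at 95.0% ± 2.2 of them, against 60.1% to 73.8% in the engrafted groups and 24.5% ± 6.7 in the CX3CR1-DTR colon. The summed normalized reads of all 68 genes had log2 ratios of group means to the graft of -1.94, -2.32 and -2.12 on days 4, 8 and 12 in the colon and of -2.21, -1.67 and -2.41 in the ileum, a description without a test. Within the 3 experiments that the dates in the labels mark, 14 ratios of a group to the graft of the same experiment ran from -2.88 to -0.97. Ileum day 8 replicate 2 carries a date a year before the other libraries of its day and month and was placed with them in experiment 3. The ratio of -0.97 includes it, and the next highest was -1.37. All these sums and shares count the reads of 4 overlapping pairs of models, such as Hist1h2ao and Hist1h2ap, in both genes. With each pair counted once, the graft's mean sum was 55434 in place of 74131 normalized reads. The ratios of group means were then -1.82, -2.22 and -1.99 in the colon and -2.13, -1.6 and -2.31 in the ileum.

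**Figure D1:**
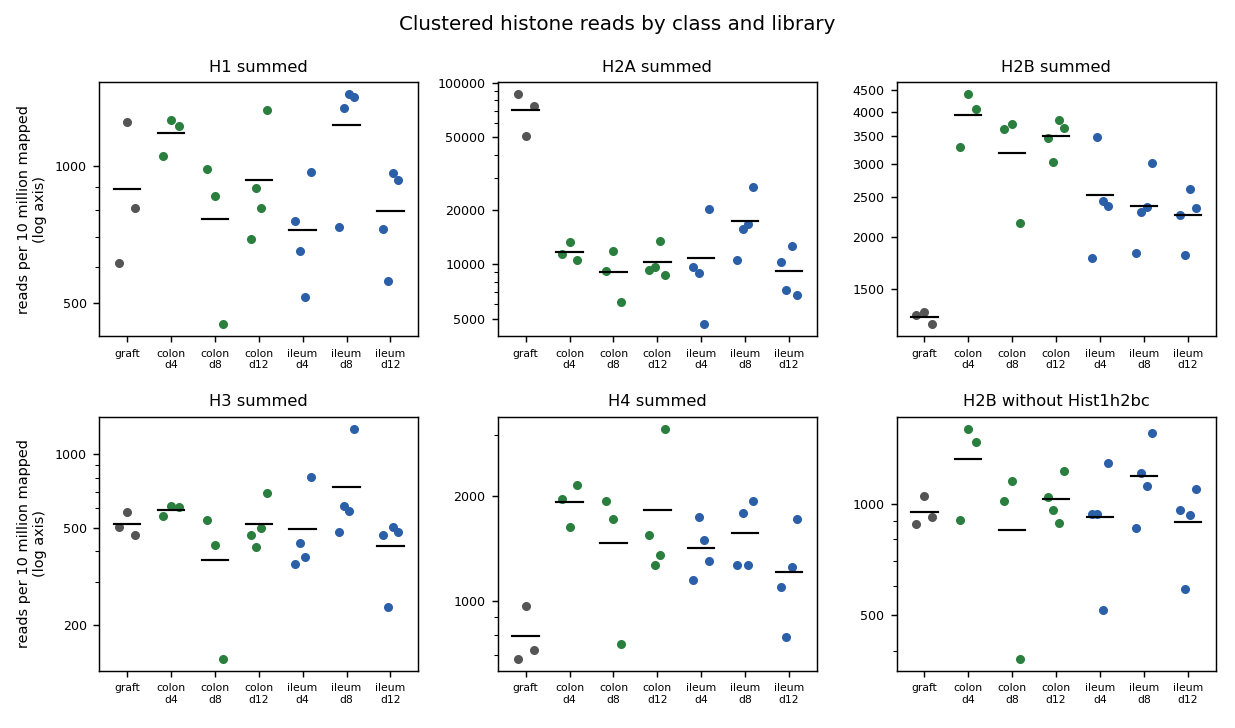
Summed normalized reads (per 10000000 mapped reads, log axis) of each histone class by library for the graft and for colon and ileum on days 4, 8 and 12, with points for libraries and lines for group means. The 3 graft libraries lie above all others for H2A and below all others for H2B, whereas the sums of H1, H3 and H2B without Hist1h2bc overlap.

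H2A genes were the members that fell. In the 3 graft libraries they summed to 86646, 50658 and 74638 normalized reads, on day 4 in the colon to 11335, 13323 and 10536, and on day 4 in the ileum to 9654, 8909, 4663 and 20220. No engrafted library reached the graft, and replicates 3 and 4 of ileum day 4, from experiments 1 and 2, lay farthest apart. The ratios to the graft of the same experiment ran from -3.46 to -1.26 on the log2 scale. H2A sums count the reads shared by Hist1h2ao and Hist1h2ap, and by Hist2h2aa1 and Hist2h2aa2, in both genes.

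On day 4 in the colon 16 of 19 H2A genes were called lower than the graft and 0 higher, where 24.5% of all genes tested were lower and 35.9% higher. Their median log2 fold change was -2.47, beside 0.21 over all genes. In the ileum on day 4 18 were lower, with a median of -2.50, against 20.5% of all genes lower and 36.2% higher. Lower H2A genes numbered 16 in the colon on day 8 (all genes 23.9% lower, 35.2% higher) and 18 on day 12 (24.9% and 37.7%). The ileum had 14 on day 8 (19.5% and 34.3%) and 18 on day 12 (20.0% and 35.9%). All 6 comparisons use the same 3 graft libraries, so they are not separate evidence.

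Hist1h2ao, one of many genes for the canonical H2A protein, had 20410, 11920 and 17250 normalized reads in the graft. Day 4 in the colon gave 2077, 2132 and 1724, and day 4 in the ileum 2116, 1708, 479.2 and 4686. Over the 22 engrafted libraries used in the test the gene ranged from 479.2 to 5407, below each graft library. Its log2 fold changes were -2.72 (SE 0.53, adjusted p = 0.000116, edgeR quasi-likelihood test) in the colon and -2.50 (SE 0.47, adjusted p = 9.7e-05) in the ileum on day 4. It was called under each of the 83 alternative settings of the 6 comparisons, with changes of -3.61 to -1.32. Hist1h2ap overlaps it and is counted on the same reads, so that its change of -2.69 on day 4 in the colon adds nothing.

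The other H2A genes of cluster 1 with large changes were close to this value. Hist1h2ag had 6088, 3474 and 5401 normalized reads in the graft and 661.4, 696.7 and 498.2 on day 4 in the colon, a change of -2.67 (SE 0.58, adjusted p = 0.000403, edgeR quasi-likelihood test). Hist1h2ac went from 5417, 3158 and 4650 to 578.9, 643.3 and 471.8 (-2.62, SE 0.56, adjusted p = 0.000298). Hist1h2aa, paired with the testis histone gene Hist1h2ba, was low, with 154.4, 135.6 and 196.2 in the graft and 9.91, 14.94, 0 and 42.79 on day 4 in the ileum, 2 of these at or under the floor, and its change there was -2.89 (SE 0.58, adjusted p = 0.000197). Hist1h2ad, Hist1h2ah and Hist1h2an had changes of -2.44 to -2.68 on day 4 in both segments. Hist3h2a, from cluster 3, fell by 2.22 in the colon (SE 0.44, adjusted p = 0.000131), with 786, 548.3 and 837.9 reads in the graft and 80.66, 166 and 120 in the colon.

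A few H2A genes stood outside this range. Hist2h2aa2 of cluster 2 (counted on the same reads as Hist2h2aa1) had 3043, 1738 and 2562 normalized reads in the graft and 1283, 1542 and 1393 on day 4 in the colon. The fold change of -0.45 (SE 0.30) did not pass (adjusted p = 0.195, edgeR quasi-likelihood test), whereas that of the ileum on day 4 did (-0.92, SE 0.28, adjusted p = 0.00729). Hist1h2al, which lies apart from cluster 1 at chr13:51295453-51298435, is counted on a noncoding model (NR_132443) and has no stem-loop after its stop codon, was chosen after its values were seen. It had 432.3, 304.2 and 416.5 normalized reads in the graft and 351.3, 453.6 and 351.8 on day 4 in the colon, and none of its 6 changes from the graft, -0.40 to 0.35, passed (lowest adjusted p = 0.272).

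H2A members share much of their sequence. A median of 65.6% of the 50-base words of an H2A gene also occurred in another histone gene, against 49.6% for H2B, 63.7% for H3, 48.8% for H4 and 9.6% for H1. As only uniquely mapped reads were counted, reads from shared stretches are missing and the split between near-identical genes is uncertain. That leaves the class sum as the firmer value, although it counts reads of overlapping models in both genes.

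H2B genes as a class did the opposite, and a single gene carried it. Their sums were 1302, 1319 and 1233 normalized reads in the graft, 3289, 4414 and 4057 on day 4 in the colon, and 1780, 3482, 2442 and 2368 on day 4 in the ileum. Without Hist1h2bc the sums were 878.6, 1050 and 917.8 in the graft and 905.2, 1598 and 1466 on day 4 in the colon, and engrafted and graft libraries overlapped. Of 16 H2B genes tested 3 were called higher and 0 lower on day 4 in the colon (median log2 fold change 0.91), and 1 and 0 on day 4 in the ileum (median 0.50). On day 8 and day 12 the counts higher were 1 and 2 in the colon and 5 and 1 in the ileum, with 0 lower. None of these shares exceeds the share of all genes that were higher in the same comparison.

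Hist1h2bc had 423.9, 269.3 and 314.8 normalized reads in the graft. Day 4 in the colon gave 2384, 2816 and 2591, and the 22 engrafted libraries lay between 841.9 and 2937, all above the graft. Its log2 fold change on day 4 was 3.30 (SE 0.37, adjusted p = 8.28e-08, edgeR quasi-likelihood test) in the colon and 2.70 (SE 0.35, adjusted p = 8.86e-07) in the ileum. The later changes were 3.04 and 3.24 in the colon and 2.43 and 2.50 in the ileum on days 8 and 12. All 83 alternative settings kept it called, with changes of 1.69 to 3.48.

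Epithelial markers and Hist1h2bc were high in the same ileum libraries on day 4, but did not keep the same order on days 8 and 12. The colon libraries used in the tests had 1784 to 2937 normalized reads of the gene at epithelial sums of 61359 to 91529. In the graft it had 269.3 to 423.9 reads at sums of 21.8 to 28.07. On day 4 replicates 2 and 3, from experiment 1, had 2545 and 1926 normalized reads of Hist1h2bc and an epithelial sum of 77617 and 67794. Replicates 1 and 4, from experiment 2, had 841.9 and 1077 of the gene and a sum of 16924 and 22324. On day 8 the gene had 973.2, 1089, 1248 and 1465 reads at a sum of 14167, 19343, 26701 and 13986, so that its highest value stood at the lowest sum. On day 12 the ileum had 1304, 1221, 1680 and 1249 reads of the gene at a sum of 10586, 26636, 27450 and 18610. On day 12 the highest value of the gene stood at the highest sum, but the other libraries did not follow the same order. The CX3CR1-DTR library with the highest epithelial sum had the least Hist1h2bc. The part of epithelial RNA in this gene's rise was not tested.

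Among members whose counted model and annotation share a strand, 10 pairs of an H2A and an H2B gene stood head to head. They were 177 to 305 bases apart, and 9 had both genes tested. Genes counted on models with 2 copies, such as Hist1h2ao and Hist1h2bq, are in no pair of this search. On day 4 in the colon the H2A gene of each of the 9 pairs was called lower (-2.67 to -1.66), and only 1 H2B partner, Hist1h2bc, was called in either direction. The other 8 partners changed by -0.22 to 1.11 with adjusted p of 0.0523 to 0.726 (edgeR quasi-likelihood test). Day 4 in the ileum gave the same count, with H2A genes at -2.68 to -1.70 and the 8 partners at -0.62 to 0.73. The pairs Hist1h2ag and Hist1h2bj (-2.67 and 0.48 in the colon) and Hist2h2ac and Hist2h2be (-1.66 and -0.22) show a partner that did not pass.

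**Figure D2:**
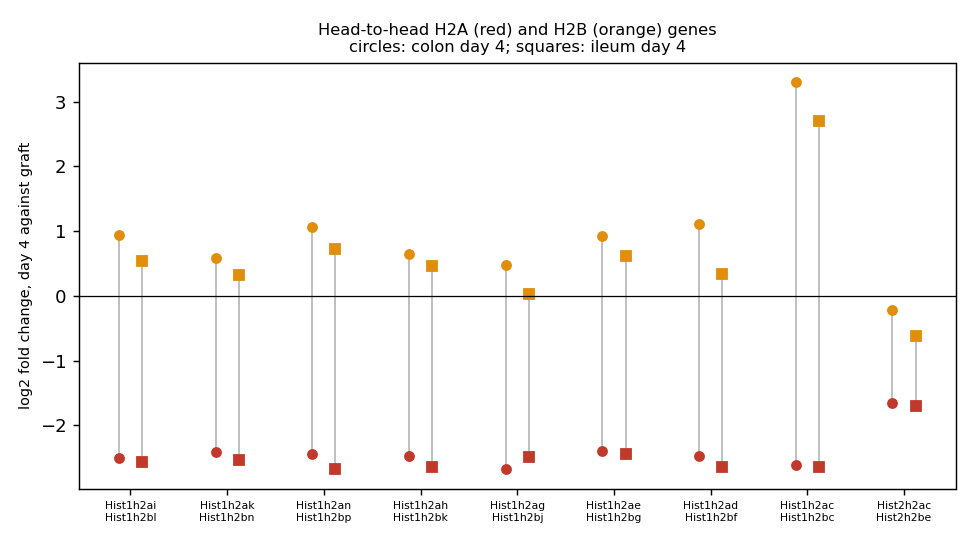
Log2 fold change from the graft on day 4 for the H2A and H2B gene of each head-to-head pair, in colon and ileum. A line joins the values of each pair and is not an error bar. All H2A genes lie below 0, and Hist1h2bc is the partner far above 0, at 3.30 in the colon and 2.70 in the ileum.

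The 239 bases between Hist1h2ac and Hist1h2bc, chr13:23775829-23776067 (mm9, plus strand, Hist1h2ac to the left and Hist1h2bc to the right), are shown as both promoters lie in them while the genes moved in opposite directions. Capitals mark the letters CCAAT (3 times), TATAA (2) and ATTTGCAT (1), each searched on both strands.
Hist1h2ac to Hist1h2bc: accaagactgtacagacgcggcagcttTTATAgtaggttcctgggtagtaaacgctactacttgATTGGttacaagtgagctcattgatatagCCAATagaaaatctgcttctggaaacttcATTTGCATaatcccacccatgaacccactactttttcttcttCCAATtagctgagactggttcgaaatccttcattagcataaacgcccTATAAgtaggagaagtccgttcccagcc

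In windows of 300 bases at the start of the counted models, 50 of 59 members held CCAAT, against 37.4% of 32851 RefSeq promoters of the same length (GRCm38.p6). TATAA was present in 45 of 59, against 24.9%. ATTTGCAT, the octamer known from H2B promoters, was found in 15 of 59, against 1.74% of all promoters, and these were 7 of 15 H2A and 8 of 16 H2B windows and 0 windows of H1, H3 or H4. Neighbouring windows of a head-to-head pair share bases, so that the members are not separate counts. A match is only a match of letters and says nothing of binding.

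H4 genes all encode the same core histone, and those called were all higher than the graft. On day 4 in the colon 11 of 13 were called higher and 0 lower, with a median log2 fold change of 1.49, where 35.9% of all genes were higher, and on day 4 in the ileum 7 were higher (median 1.18), against 36.2%. Counts on days 8 and 12 were 7 and 11 in the colon, against 35.2% and 37.7% of all genes, and 11 and 8 in the ileum, against 34.3% and 35.9%, with 0 H4 genes lower in each. The summed H4 reads were 682.1, 970.7 and 724.1 in the graft, 1972, 1636 and 2160 on day 4 in the colon and 1149, 1746, 1502 and 1305 on day 4 in the ileum. Graft and day 4 libraries did not overlap, whereas colon day 8 replicate 4 (756.1) and ileum day 12 replicate 2 (789.3) fell within the graft's range.

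Hist1h4n had 87.02, 162.8 and 75.07 normalized reads in the graft and 487.5, 340.9 and 427 on day 4 in the colon, a change of 2.27 (SE 0.46, adjusted p = 0.000187, edgeR quasi-likelihood test). Hist1h4m went from 36.49, 87.19 and 36.33 to 249.1, 186.8 and 229.8 (2.36, SE 0.53, adjusted p = 0.000493). Hist1h4d, which had 101.1, 96.88 and 106.6 in the graft and 191.8, 109.7 and 298.9 in the colon, did not pass on day 4 in either segment (1.30 and 1.02, adjusted p = 0.0548 and 0.132). Among these H4 genes the single values are small, 109.7 to 487.5 reads in the colon. Hist1h4m (chr13:21903615-21904019) overlaps Hist1h4n (chr13:21903653-21904018), whose model has 2 copies. Of their 50-base words 89.9% and 86.4% also occur in another histone gene. Both enter the H4 counts and sums, and their changes are not separate results.

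More H4 genes are named here after their values were seen. Hist1h4k had 25.26, 38.75 and 31.48 normalized reads in the graft and 132.6, 121.5 and 87.44 on day 4 in the colon, a change of 2.15 (SE 0.42, adjusted p = 0.000117, edgeR quasi-likelihood test). Hist4h4, the lone gene of chromosome 6, had 8.42, 21.31 and 4.84 in the graft, where 2 libraries were at or under the floor, and 48.4, 35.58 and 50.84 in the colon (2.21, SE 0.54, adjusted p = 0.00121). Hist1h4i was the exception, with 168.4, 162.8 and 152.6 in the graft, 166.7, 136.4 and 207.4 in the colon and 6 changes of -0.11 to 0.59, none of them called.

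**Figure D3:**
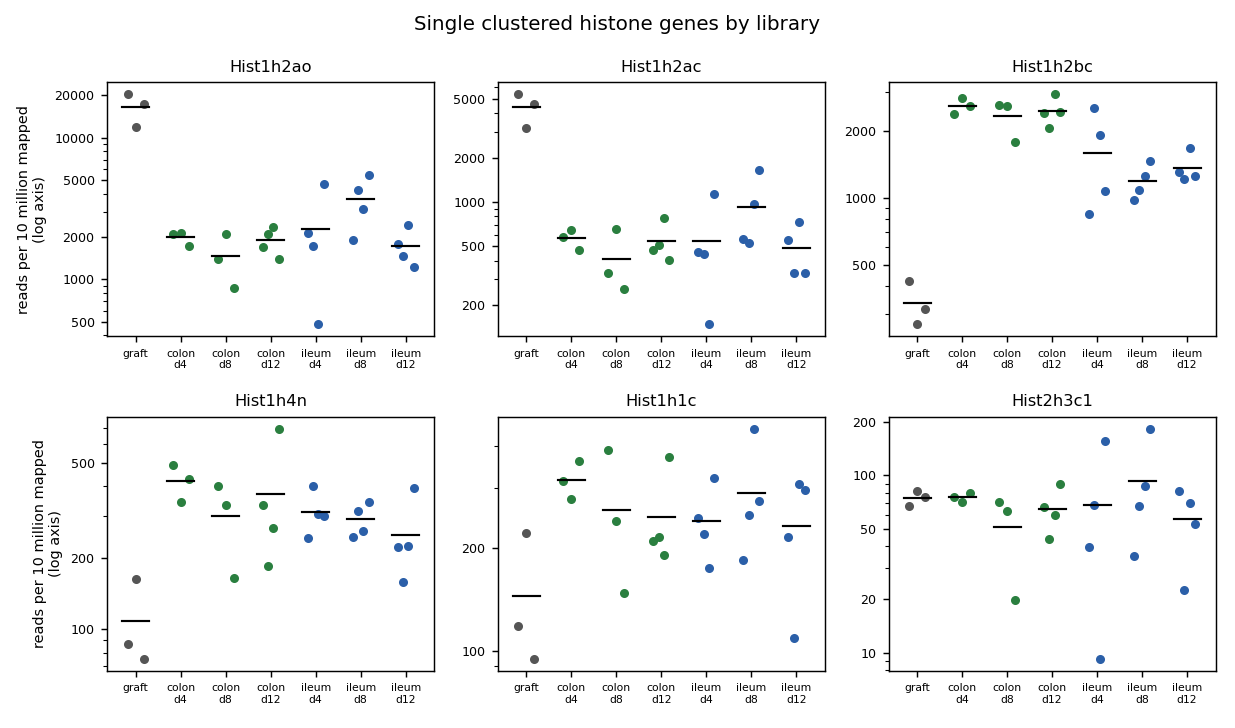
Normalized reads (per 10000000 mapped reads, log axis) of 6 single genes by library in the graft and the engrafted groups, with points for libraries and lines for group means. Hist1h2ao and Hist1h2ac lie below the graft and Hist1h2bc above it in all 22 engrafted libraries, while the points of Hist2h3c1 overlap.

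H1 had only 4 genes to test, and H3 genes were called against the graft in 1 of the 6 comparisons, that of the ileum on day 8. The H1 sums were 611.9, 1250 and 808.9 normalized reads in the graft and 1050, 1260 and 1224 on day 4 in the colon. Of 4 H1 genes tested 2 were called higher on day 4 in the colon and 1 in the ileum, with 0 lower, where 35.9% and 36.2% of all genes were higher. Hist1h1c, a somatic linker histone also known to give polyadenylated mRNA, had 117.9, 220.9 and 94.45 in the graft, 313.7, 278.7 and 359.9 on day 4 in the colon and 244.3, 219.9, 175.1 and 321 in the ileum. Its changes were 1.46 (SE 0.42, adjusted p = 0.00429, edgeR quasi-likelihood test) and 1.15 (SE 0.41, adjusted p = 0.0191), with the engrafted values just above or within the graft's range. Hist1h1d rose in the colon on day 4 (1.02, SE 0.40, adjusted p = 0.0313) and Hist1h1e did not pass there (0.50, adjusted p = 0.284).

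The H3 sums were 502.5, 577.4 and 467.4 normalized reads in the graft and 559.2, 610.7 and 606 on day 4 in the colon. None of 12 H3 genes was called against the graft by edgeR's quasi-likelihood test on day 4 in the colon or the ileum, with 0 and 1 at an unadjusted p under 0.05. The colon had 0 on days 8 and 12, and the ileum 5 higher on day 8 and 0 on day 12. Of all genes 35.2% and 37.7% were higher in the colon on these days, and 34.3% and 35.9% in the ileum. Ileum day 8 replicate 4 had an H3 sum of 1268, where the next highest of its group was 610.2. Hist2h3c1, whose reads are shared with Hist2h3c2, had 67.37, 81.38 and 75.07 in the graft and 75.28, 71.15 and 79.31 on day 4 in the colon, a change of 0.34 (SE 0.60, adjusted p = 0.644). Hist1h3a had 64.56, 50.38 and 12.11 in the graft and 62.35, 80.91, 70.28 and 156.3 on day 8 in the ileum, where it was called (1.76, SE 0.58, adjusted p = 0.014).

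**Figure D4:**
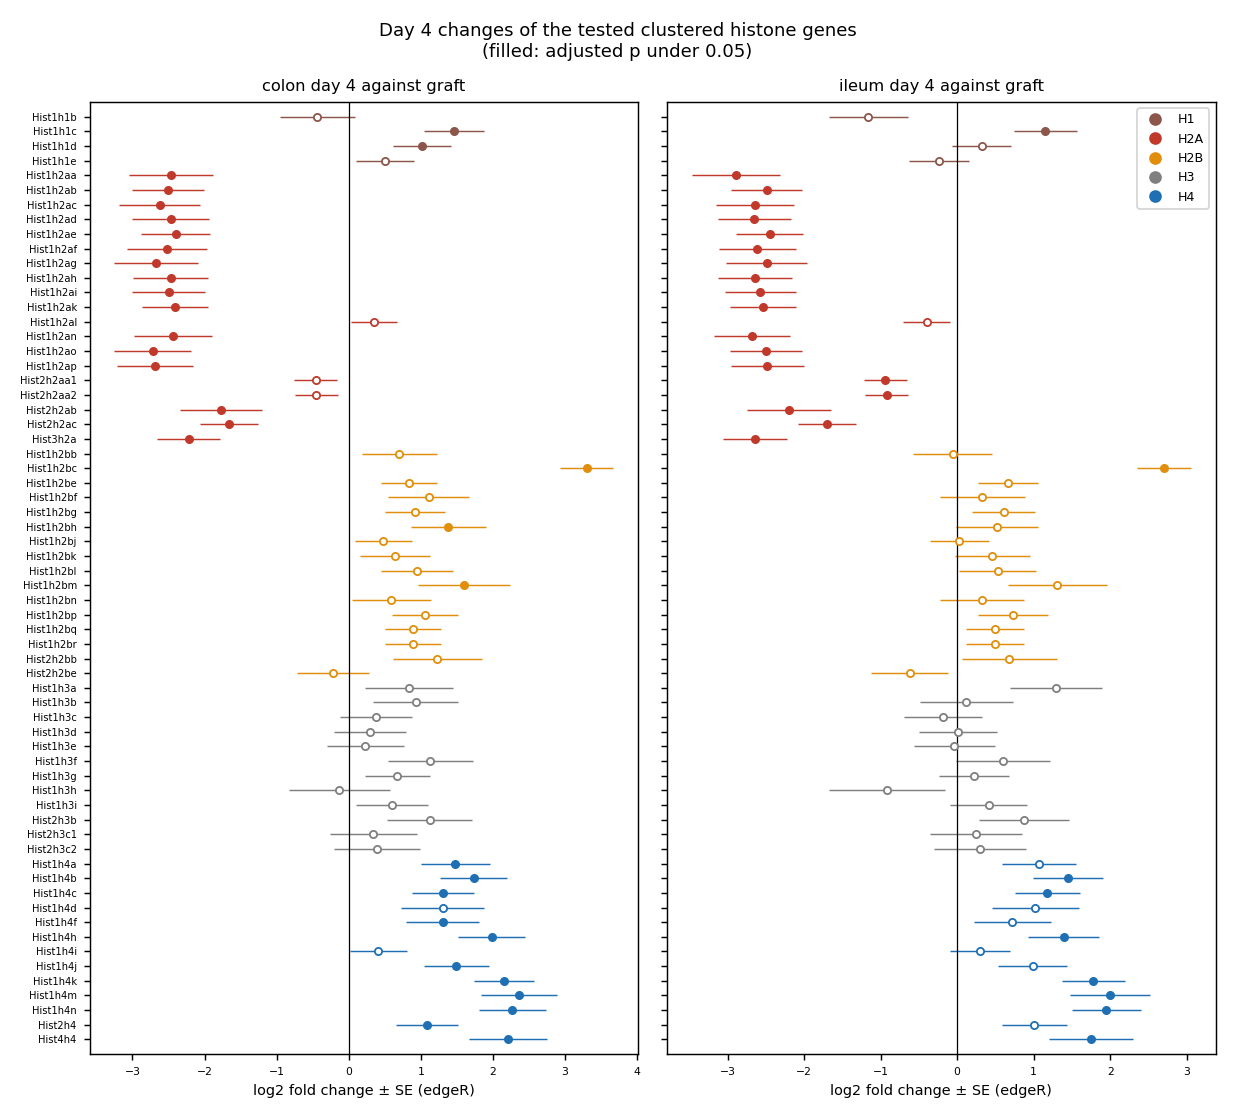
Log2 fold change from the graft on day 4 of each tested member by class, colon and ileum, with filled points for genes called at an adjusted p under 0.05. H2A genes lie near -2.5 except for a few, H4 genes between 0.30 and 2.36, and Hist1h2bc stands apart at 3.30 in the colon.

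Directions among small changes depend on scaling. TMM set the median log2 fold change of all genes at 0.20 to 0.24 in the 6 comparisons with the graft, whereas with library totals alone it was -0.35 to -0.04, and 59.5% of the genes called on day 4 in the colon were higher against 48.4% with totals. Over all members the split on day 4 in the colon was 16 higher and 16 lower, and 11 and 18 with totals. The colon gave 9 and 16 on day 8 (7 and 21 with totals) and 14 and 18 on day 12 (11 and 19). The ileum gave 9 and 18 on day 4 (6 and 20), 23 and 14 on day 8 (8 and 20) and 10 and 18 on day 12 (4 and 20). Among all genes called in the ileum 63.8%, 63.7% and 64.2% were higher on these days, and 47.5%, 42.4% and 45.4% with totals. The 23 members higher on day 8 in the ileum were 35.9% of those tested, close to the 34.3% of all genes. Among all genes called in the colon 59.5% were higher on day 8 and 60.2% on day 12, and 51.1% and 48.6% with totals. Some counts of higher members also rested on 1 library. In the ileum on day 8 the 23 became 12 without ileum day 8 replicate 4 and 15 without graft replicate 1, and on day 12 the 10 became 6 without graft replicate 1, graft replicate 3 or ileum day 12 replicate 4. In the colon on day 8 the 9 became 5 without colon day 8 replicate 2. The class sums, which are on library totals, gave log2 ratios of -2.96 to -2.03 for H2A, 0.81 to 1.61 for H2B and 0.62 to 1.28 for H4 over the 6 groups, while those of H1 (-0.30 to 0.47), H3 (-0.49 to 0.51) and H2B without Hist1h2bc (-0.16 to 0.48) changed sign between groups.

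Between days only day 12 was tested against day 4, and no histone gene was called. By edgeR's quasi-likelihood test 0 of 64 members were called between day 4 and day 12 in the colon, where 0% of all genes were called higher and 0% lower, and no member had an unadjusted p under 0.05. DESeq2 also called 0. In the ileum 0 members were called between these days, with 0 at an unadjusted p under 0.05 and 0 by DESeq2, against 0.279% of all genes higher and 2.02% lower on day 12. Changes of members from day 4 to day 12 were -0.69 to 0.74 in the colon and -0.51 to 0.62 in the ileum. Hist1h2bc changed by -0.05 (SE 0.32) and -0.20 (SE 0.29).

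Colon and ileum did not differ in a called member on days 4 and 12. On day 4 0 members were called by edgeR's quasi-likelihood test (1 at an unadjusted p under 0.05, 0 by DESeq2), against 0.524% of all genes higher in the colon and 2.66% lower. On day 12 0 were called (3 at an unadjusted p under 0.05, 1 by DESeq2), although 15.3% of all genes were higher in the colon and 17.2% lower. Hist1h2bc on day 8 had 973.2, 1089, 1248 and 1465 normalized reads in the ileum and 2607, 2594 and 1784 in the colon. These values did not overlap, but the difference of 0.61 (SE 0.32, adjusted p = 0.136) did not pass, nor did that of day 12 (0.75, SE 0.29, adjusted p = 0.0543).

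On day 8 26 members were called lower in the colon than in the ileum and 0 higher, against 18.3% of all genes lower and 16.8% higher. They were 15 of H2A, 6 of H3, 3 of H2B and 2 of H1, and 0 of H4. Hist1h2ak had 148.6, 216.6 and 81.93 normalized reads in the colon and 263, 354, 461.8 and 788.5 in the ileum, a difference of -2.06 (SE 0.45, adjusted p = 0.00155, edgeR quasi-likelihood test). Hist1h1e had 219.5, 292.3 and 169.7 against 300.9, 731.5, 502 and 880.3 (-1.77, SE 0.40, adjusted p = 0.00197). Both genes were lower in each colon library than in each ileum library. The H3 genes Hist1h3i and Hist1h3d differed by -1.83 each (adjusted p = 0.0086 and 0.00831).

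A single library decided this count. Colon day 8 replicate 4, the deepest library, had the lowest H2A sum of the group (6183 against 9141 and 11884 normalized reads) and an H3 sum of 145.1 against 536.9 and 422.8. Without it 4 members were called lower and 0 higher. With library totals in place of TMM 2 were higher and 18 lower, and an equal-variance test on log2 values called 2.

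In the CX3CR1-DTR colon H2A reads were lower still than in the CD11c-DTR colon. H2A genes summed to 71840 to 126102 reads per 10000000 reads on genes in the graft, to 13518 to 23995 in the CD11c-DTR colon on day 12, and to 1840 to 7515 in the 6 CX3CR1-DTR libraries. Against the graft 19 of 66 members were called higher and 26 lower, where 39.5% of all genes were higher and 36.0% lower, and all 19 H2A genes were among the lower. Against the colon on day 12 2 were higher and 32 lower, where 25.2% of all genes were higher and 35.4% lower. Genes outside the clusters also differed widely from the colon on day 12, such as Pcna (-6.39) and Npm1 (-6.86), named after their values were seen. Of 26 S phase genes 9 were lower and 5 higher there, and of 20 histone chaperones 9 and 6. Table, run, recipient and day cannot be told apart in these comparisons, and the models of Hist1h2bq, Hist1h2br and Hist1h4n differ between the tables. Whether reads from sequence shared between genes were kept alike in both tables was not tested.

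Hist1h2ag had 17.57 to 81.71 reads per 10000000 reads on genes in the 6 CX3CR1-DTR libraries (mean 53.74 ± 23.17), against 7213 ± 2043 in the graft and 934.2 ± 382.5 in the colon on day 12. Its changes were -6.76 (SE 0.39, adjusted p = 2.06e-09, edgeR quasi-likelihood test) and -4.15 (SE 0.36, adjusted p = 2.64e-07). Hist1h2ao had 822.1 ± 776.9, with replicate 5 at 2371 and the others at 302.3 to 740.6, and changed by -4.55 (SE 0.53) from the graft. Hist3h2a, in contrast, was at 256 ± 249.9 and did not pass against the colon on day 12 (0.57, SE 0.52, adjusted p = 0.356).

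Hist1h2bc was at 408.6, 3211, 3434, 4404, 5953 and 3768 reads in the 6 libraries, against 485.5 ± 119.9 in the graft and 4149 ± 820.4 in the colon on day 12. Replicate 1 alone lay at the level of the graft, at the highest epithelial sum of the group (149325) and the lowest depth. The change from the graft was 3.16 (SE 0.59, adjusted p = 0.000212, edgeR quasi-likelihood test), and the difference from the colon on day 12 was -0.26 (SE 0.45, adjusted p = 0.632). Of 13 H4 genes 9 were called higher than in the graft and 0 lower, where 39.5% of all genes were higher. Hist4h4 was at 3.60 (SE 0.50) and Hist1h4h, named after its values were seen, at 2.61 (SE 0.35). Hist1h4m did not pass (-0.07, SE 0.47, adjusted p = 0.896, edgeR quasi-likelihood test). Hist1h1c was higher than in the graft (1.92, SE 0.38, adjusted p = 0.000344).

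**Figure D5:**
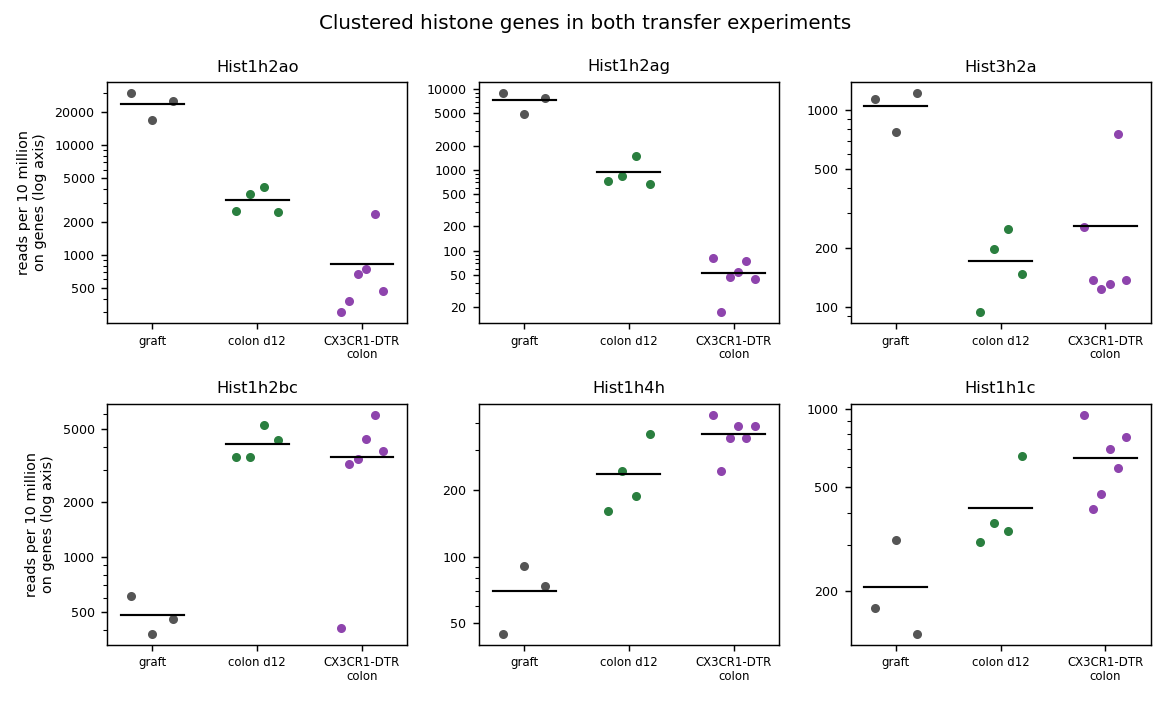
Reads per 10000000 reads on genes (log axis) of 6 histone genes in the graft, the CD11c-DTR colon on day 12 and the CX3CR1-DTR colon, with points for libraries and lines for group means. Hist1h2ag is lowest in the CX3CR1-DTR colon, and replicate 1 of that group is the single low point of Hist1h2bc, at 408.6.

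Genes of DNA synthesis fell with H2A. Of 26 S phase genes 23 were lower than the graft on day 4 in the colon and 21 in the ileum, with 0 higher and medians of -1.94 and -1.44, where 24.5% and 20.5% of all genes were lower. These lists were chosen with earlier results known. Pcna, the sliding clamp of DNA polymerase, went from 2266 ± 574.6 normalized reads in the graft to 630 ± 212.3 on day 4 in the colon, Rrm1, a subunit of ribonucleotide reductase, from 1305 ± 244.7 to 282.7 ± 54.71, and the cyclin Ccna2 from 1542 ± 411.4 to 223.3 ± 117.9. All 18 mitosis genes were lower on day 4 in both segments (medians -2.42 and -2.02), with Top2a at -2.57 and Mki67 at -2.30 in the colon. For days 8 and 12 in colon and ileum the S phase genes had 20 to 23 lower, with 1 higher on day 12 in the colon and 0 otherwise, and the mitosis genes 18 lower in each, against the same graft. In the CX3CR1-DTR colon 16 S phase genes were lower than the graft and 1 was higher, and 15 mitosis genes were lower and 0 higher, where 36.0% of all genes were lower and 39.5% higher.

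Histone genes outside the clusters, listed here as replication-independent, did not move as 1 group. Whether each of them is independent of replication in these cells was not tested. On day 4 in the colon 6 of 10 tested were lower and 2 higher (median -1.69), beside 24.5% and 35.9% of all genes. H2afz, the gene of the variant H2A.Z, went from 8625 ± 796 normalized reads to 1526 ± 86.65 (-2.16, adjusted p = 6.27e-07, edgeR quasi-likelihood test) and H2afx fell by 3.59. H3f3b, a gene for H3.3, had 6826 ± 1142 and 5432 ± 306.8, a change of 0.01 (adjusted p = 0.974), while H3f3a, the other, fell by 1.87. H1f0, the linker histone typical of resting cells, was called higher there (adjusted p = 0.000109) and on day 12 (1.38), and it, H2afx and H3f3a are named outside the rule that picked genes by level. H2afj had 5221 ± 385.1 and 3675 ± 413.1 (-0.17, adjusted p = 0.658).

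Of 14 genes for the transcription and 3′ end processing of histone mRNAs, 7 were lower and 0 higher on day 4 in the colon (median -0.62) and 6 and 0 in the ileum (median -0.49), where 24.5% and 20.5% of all genes were lower. Slbp, whose product binds the stem-loop and which is likewise named for its role, fell by 1.68 (adjusted p = 0.000478, edgeR quasi-likelihood test) in the colon. The endonuclease gene Cpsf3 went from 1010 ± 182.6 to 445.6 ± 125.7 normalized reads (-0.86), Srrt from 765.7 ± 121.8 to 357.7 ± 58.1 (-0.77), and the scaffold gene Sympk had 533.5 ± 116.9 and 389 ± 19.3 (-0.12, adjusted p = 0.658). Npat, the coactivator of histone gene transcription, did not pass (-0.06, adjusted p = 0.956). Of 20 histone chaperones 12 were lower and 2 higher on day 4 in the colon (median -0.81), beside 24.5% and 35.9% of all genes. In the ileum on day 4 9 were lower and 3 higher, beside 20.5% and 36.2%. Between graft and colon Npm1 had 902.8 ± 206.2 and 1530 ± 572.3 (1.13, adjusted p = 0.00942, edgeR quasi-likelihood test). Hjurp had 1359 ± 173.2 and 635.9 ± 57.44 (-0.75, adjusted p = 0.032, same test). Set had 1577 ± 355.2 and 994.9 ± 152.6 (-0.33, adjusted p = 0.151, same test). In the CX3CR1-DTR colon 12 chaperones were lower than the graft and 2 higher, beside 36.0% and 39.5% of all genes, and Npm1 was at -5.46.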

How the data were processed

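MARS-seq is a 3′ RNA-seq method that catches polyadenylated RNA on oligo(dT). The authors mapped reads to mm9 with HISAT 0.1.6, kept uniquely mapping reads and used HOMER to count exon reads on the sense strand, with 1 model kept per gene. They deposited raw read counts per gene for 2 transfer experiments, and whether these counts are of molecules is not given in the sources used here. A further 52 columns of the second table, without a label here, were not used.

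Members and gene lists were chosen with earlier results of these data known. Histone genes were taken by symbol and sorted by class. Counts were scaled to 10000000 mapped reads, or to 10000000 gene reads where the second table enters a comparison. Genes with 50 normalized reads in at least 3 libraries were tested (11842 in 25 libraries, 11718 of 24148 shared symbols in 13) with edgeR 4.0.16 (glmQLFit and glmQLFTest, TMM) in R 4.3.3, with Benjamini-Hochberg adjustment at 0.05. The fits were tested on simulated data. Alternatives were DESeq2 1.42.0, library totals, no filter, 2 groups alone, all 26 libraries, an equal-variance test on log2 values with 50 added (SciPy 1.17.1), each replicate left out, the experiment as a block, and, chosen after seeing the data, each of 4 overlapping pairs of models counted once. Python 3.11.15 and pandas 2.3.3 made the tables.

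Depth ranged from 591817 to 5228664 gene reads in the first table and from 1223772 to 4218027 in the second, and floors cover counting error only. No 2 libraries of a group agreed within sampling noise (51 pairs, smallest chi-square per degree of freedom 5.21). Experiments were read from the dates in the labels, and the day of the second transfer from the study's methods. Deviations from group means correlated at a median of 0.02 (-0.48 to 0.52) in 96 pairs of libraries from 1 experiment. In 171 other pairs the median was -0.01 (-0.45 to 0.40). The main fit has no block, but medians near 0 do not show that the experiment had no effect. With the block the genes called over all genes went from 377 to 1265 between colon and ileum on day 4. Between days 4 and 12 in the ileum they went from 272 to 0. Named with values were the 3 genes of each class with the highest mean over groups, the 10 largest called changes on day 4, up to 10 genes called between segments and the 3 highest genes of each list, and others are marked as chosen later. Sequences came from the mm9 genome with GENCODE vM1 models, and background promoters from RefSeq (GRCm38.p6). Promoter windows run from 250 bases before to 50 after the start of a model.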

Additional observations from a re-analysis of the deposited data

Results flagged for a closer look

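Of 210 groups of 4 to 10 libraries examined, 21 held a library that stood apart from the others by Dixon's criterion, and chance alone flags about 1 in 20. Replicate 5 of the CX3CR1-DTR colon, the deepest of its group, was high for 9 of these values, in reads per 10000000 reads on genes with the next highest library in brackets. These were Hist1h2ao 2371 (740.6) and the overlapping Hist1h2ap 2290 (709.2), Hist1h2ac 322.4 (190.8), Hist1h2af 87.72 (13.63), Hist1h2aa 18.97 (4.55), Hist3h2a 756.3 (253.3), the H2A sum 7515 (3327), and Hist1h2bq and Hist1h2br at 104.3 each (54.61). The other 5 libraries had H2A sums of 1840 to 3327.

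Single libraries of the CD11c-DTR transfer were high, in normalized reads, as follows. Colon day 12 replicate 4 had 371.1 for Hist1h1c (214.9) and an H4 sum of 3130 (1547), and replicate 3 had 632.3 for Hist1h2ah (314.5) and 570.1 for Hist1h2ai (342.5). Ileum day 4 replicate 4 had 413.7 for Hist1h2ak (177.2), 49.93 for Hist1h3g (21.35) and an H3 sum of 806 (431.3). Ileum day 8 replicate 4 had 115.6 for Hist1h2bn (57.31), 78.17 for Hist1h2bp (46.85) and an H3 sum of 1268 (610.2). Low libraries were ileum day 8 replicate 1 with an H1 sum of 734.7, where the next was 1338, and ileum day 12 replicate 2 with an H3 sum of 236.8, where the next was 466.4.

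The change from the graft differed between colon and ileum on day 8, by the contrast of edgeR's quasi-likelihood test. The difference was -2.60 for Hist1h2aa (adjusted p = 0.00393), -2.06 for Hist1h2ak (0.00155), -1.91 for Hist1h2af (0.00732), -1.85 for Hist1h2ad (0.00713) and -1.83 for Hist1h3i (0.0086) and Hist1h3d (0.00831). It was -1.77 for Hist1h1e (0.00197) and Hist1h3c (0.0114) and -1.71 for Hist1h2ai (0.00763) and Hist1h2ao (0.00981). The graft cancels out of this contrast, so that it is the difference of the segments themselves, and without colon day 8 replicate 4 the members called fell from 26 to 4.

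In colon day 8 replicate 1, which was left out of the tests, Hist1h2bc had 1060 normalized reads, above the highest graft library (423.9), at an epithelial sum of 38287.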

How the results depend on the processing

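No called value of a named gene changed direction under the alternatives in the comparisons where this was examined. These were day 4 in colon and ileum and the CX3CR1-DTR colon against the graft, and colon against ileum on day 8. The 6 counts against the graft, higher and lower members together, stayed within 1.5 times their main value, at 20 to 41 members, although counts of higher members alone moved by more (ileum day 8 from 23 to 12, ileum day 12 from 10 to 6 and colon day 8 from 9 to 5 with 1 library left out, and ileum day 8 to 8 and day 12 to 4 with library totals). With each CX3CR1-DTR, graft or colon day 12 library left out in turn, the counts of that transfer were 39 to 45 against the graft and 30 to 39 against the colon. In the fit with experiment as replicate block 29, 28 and 32 members were called in the colon and 31, 35 and 27 in the ileum on days 4, 8 and 12, 26 between the segments on day 8 and 0 in the other comparisons, so that the pairing changed no count by over 1.5 times. The count between colon and ileum on day 8 (26) was 2 by the equal-variance test and 4 to 28 with single libraries left out. Between colon and ileum 2 members were called on day 4 with the ileum libraries of experiment 2 alone. On day 12 3 were called with library totals and 1 each with DESeq2, the 2 groups alone and the equal-variance test, and 0 to 1 with single libraries left out. The sum over members on day 4 in the colon (-1.94) was -1.75 per reads on genes, -1.73 without the member with most reads and -2.12 to -1.78 with single libraries left out, and that on day 12 (-2.12) was -1.90, -1.93 and -2.30 to -1.96. The cause of these shifts was not tested. With overlapping models counted once, 31 members were called on day 4 in the colon and 25 in the ileum. Hist1h4m and Hist1h4n were not among the pairs counted once. Depth limits genes near the floor, such as Hist1h2aa and Hist4h4, to values of few counts.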
